A study of Mus musculus with 44 samples.

Results

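The subject is 10 genes that carry bile acids and bile lipids through the hepatocyte membrane, of 20105 measured RefSeq identifiers. They were taken by symbol and kept apart by role: uptake from blood (Slc10a1, Slco1b2 and Slco1a4), export into bile across the canalicular membrane (Abcb11, Abcb4, Abcc2 and Atp8b1) and efflux back to blood across the basolateral membrane (Abcc3, Abcc4 and Slc51b). Their levels were followed in 44 nuclear RNA libraries from the livers of 22 male HEP-INTACT mice, a strain in which hepatocyte nuclei carry a tag and can be pulled out of a liver homogenate. Every mouse gave 2 libraries, 1 from the tagged hepatocyte nuclei and 1 from the nuclei of the whole liver. Of these mice, 11 belonged to a study of a FPC diet lasting 20 weeks and the other 11 to a study of CDAHFD, a high-fat diet without choline and with defined amino acids, lasting 7 weeks; both diets induce steatohepatitis (NASH). Each study held 4 control mice on a low fat diet for the same time, 4 mice with mild NASH and 3 with advanced NASH. Mild and advanced mice ate the same diet and were sorted afterwards by liver histology, with marked fibrosis in the advanced group alone, so the stages were not assigned at random. All mice, controls included, carried the tag; neither the promoter behind it nor the ages of the mice are given in the labels. All 10 genes passed the filter on low counts in each of the 18 comparisons.

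Bile acids circulate between liver and gut. Hepatocytes draw conjugated bile acids from portal blood with the sodium-driven carrier encoded by Slc10a1 (NTCP) and with sodium-independent organic anion carriers of the Slco family, and the ATP-driven pump encoded by Abcb11 (BSEP) moves them into the canaliculus, the rate-limiting step of bile flow. Abcb4 supplies the phosphatidylcholine that shields the duct lining from bile acids, Abcc2 exports bilirubin conjugates and other organic anions, and Atp8b1 flips phospholipids inward to keep the canalicular membrane stable. Abcc3, Abcc4 and the heterodimer of Slc51a and Slc51b lie on the blood side and give bile acids another way out, which is known to be used more when bile flow fails. Bile acids bind the nuclear receptor encoded by Nr1h4 (FXR), which is known to act on several of these genes.

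Promoter sequences are shown for 4 genes on which the results below turn: Slc10a1, the one of the 3 uptake members that fell furthest, Abcb11, the bile acid pump, and Abcc4 and Slc51b, the efflux genes that rose in both studies. Each is the 250 bases before the counted start on the minus strand, from RefSeq on GRCm38.p6, 5′ to 3′: chr12:80968080-80968329 for Slc10a1, chr2:69342617-69342866 for Abcb11, chr14:118706220-118706469 for Abcc4 and chr9:65422774-65423023 for Slc51b. Capitals mark matches, on either strand, to the letters of short motifs.
Slc10a1: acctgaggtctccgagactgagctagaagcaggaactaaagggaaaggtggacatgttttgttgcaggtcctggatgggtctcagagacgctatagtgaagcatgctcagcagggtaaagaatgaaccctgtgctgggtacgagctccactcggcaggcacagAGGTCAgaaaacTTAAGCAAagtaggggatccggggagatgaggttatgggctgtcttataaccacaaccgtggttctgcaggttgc
Abcb11: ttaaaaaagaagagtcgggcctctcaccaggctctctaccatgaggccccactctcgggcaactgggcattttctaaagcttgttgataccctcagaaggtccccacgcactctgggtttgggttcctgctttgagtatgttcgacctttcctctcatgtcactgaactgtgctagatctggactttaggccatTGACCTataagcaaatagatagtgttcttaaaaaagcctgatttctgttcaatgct
Abcc4: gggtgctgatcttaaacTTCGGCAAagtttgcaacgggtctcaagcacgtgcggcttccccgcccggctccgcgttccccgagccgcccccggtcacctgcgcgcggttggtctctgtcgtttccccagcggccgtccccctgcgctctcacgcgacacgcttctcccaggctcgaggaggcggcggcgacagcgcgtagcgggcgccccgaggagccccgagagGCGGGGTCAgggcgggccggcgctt
Slc51b: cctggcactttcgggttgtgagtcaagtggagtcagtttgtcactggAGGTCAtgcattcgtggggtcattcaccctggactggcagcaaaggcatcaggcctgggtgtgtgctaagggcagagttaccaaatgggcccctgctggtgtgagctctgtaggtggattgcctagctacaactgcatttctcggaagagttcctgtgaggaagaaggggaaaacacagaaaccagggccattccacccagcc
In Slc10a1 the capitals are the AGGTCA motif of nuclear receptors at -87 to -82 from the start and the C/EBP core TTGCNNAA, read on the opposite strand, at -75 to -68. In Abcb11 they are AGGTCA on the opposite strand at -56 to -51. In Abcc4 they are a C/EBP core at -233 to -226 and the core of the antioxidant response element, TGACNNNGC, at -25 to -17. Both Abcc4 matches are on the opposite strand. In Slc51b they are AGGTCA at -203 to -198. None of these matches overlapped another. The share of all 32536 windows of this length in the table that held each motif was 14.0% for AGGTCA, 9.57% for TTGCNNAA and 10.2% for TGACNNNGC, so these short motifs are common and a match is a description of letters. The letters GTCANTGAC (the core of an inverted repeat of that motif, held by 0.320% of windows), CAAAGTCCA (0.387%) and GTTAAT (6.47%) had no match in these 4 windows. Of the other genes, Slco1b2 held AGGTCA at -81 to -76 and GTTAAT at -66 to -61, Abcc2 held TGACNNNGC at -98 to -90 and AGGTCA at -49 to -44, and Abcb4 and Slco1a4 held none of the 6 motifs. Windows were found for 8 of the 10 genes, and Abcc3 and Atp8b1 are named only.

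Library totals ran from 12135408 to 33063251 counts. Levels below are CPM, counts scaled to library size, with the trimmed-mean (TMM) correction of edgeR. Because introns were counted with exons, long genes collect more counts, and levels of different genes are compared only per kilobase. Scaling by library totals alone instead moved the median gene upward in every comparison of diseased mice with controls, by 0.24 to 0.49 on the log2 scale. Between advanced and mild hepatocyte nuclei it moved upward by 0.16 in the FPC study and 0.15 in the CDAHFD study. Calls of the 10 genes that this scaling changes are named where they arise. In 20 of the 22 mice the hepatocyte and whole liver libraries deviated together from their groups. The exceptions were CDAHFD mice Control_9862 and Control_9867, whose libraries matched crosswise. Tests between fractions that use the CDAHFD controls are given with and without them. Percentages of whole liver in CDAHFD controls include both mice unless stated. Markers of other cells moved with disease in the hepatocyte nuclei: 11 of 11 cholangiocyte markers tested rose in advanced FPC mice and 11 of 12 in advanced CDAHFD mice, where 26.5% and 30.3% of all genes were higher. In mild FPC and mild CDAHFD mice, 21.8% and 29.6% of all genes were higher. Of the macrophage markers tested, 8 of 12 rose in advanced FPC mice, with Trem2 at 0 in their controls, and 10 of 12 rose in advanced CDAHFD mice. Of the lymphocyte markers tested, 5 of 8 rose in advanced and 7 of 8 in mild FPC mice, and 5 of 7 in advanced and 6 of 7 in mild CDAHFD mice. Their summed level was 15.4 to 65.3 TMM CPM in FPC controls, 187 to 402 in mild and 114 to 285 in advanced mice, and 8.55 to 22.8, 211 to 334 and 147 to 177 in the CDAHFD study. Of the stellate cell markers, 6 of 12 rose in advanced FPC and 5 of 11 in advanced CDAHFD mice. In mild FPC mice 10 of 12 endothelial markers rose, with a summed level of 91.7 to 142 TMM CPM in controls and 191 to 347 in mild mice. The 10 hepatocyte markers were present in all libraries. Of these, 8 fell in advanced FPC mice and 5 in advanced CDAHFD mice, beside 20.4% and 29.2% of all genes. These are bulk samples, so fewer cells of a type and less RNA per cell cannot be told apart. In tests within a fraction, p-values weigh a difference against the spread between mice. Tests between fractions, and of their interaction with disease, carry no term for the mouse in the reported fit.

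In control hepatocyte nuclei the export and uptake genes were read far more than the efflux genes, with Abcc3 as the exception. Per kilobase of gene, FPC controls held 80.4 ± 8.16 TMM CPM of Abcc2 (SD, n = 4), followed by Slco1b2 at 53.8 ± 3.74, and these 2 genes stood apart from each other and from all that followed. Abcb11 (23.5 ± 8.15 per kilobase), Slc10a1 (19.3 ± 5.52) and Abcb4 (11.1 ± 2.03) came next, each overlapping its neighbour. Slco1a4 (8.49 ± 0.452) overlapped Abcc3 (8.01 ± 2.86), and Atp8b1 lay apart below them at 2.20 ± 0.346. Slc51b (0.0496 ± 0.0131) and Abcc4 (0.0318 ± 0.0142) closed the order and overlapped. The controls of the CDAHFD study kept Abcc2 (50.0 ± 10.5) and Slco1b2 (51.5 ± 6.57) on top, with overlapping ranges, and held less Abcc3 (1.80 ± 0.557). In advanced disease Slc10a1 stood at 1.68 ± 0.851 per kilobase in FPC mice and 0.851 ± 0.262 in CDAHFD mice, while Abcc4 stood at 0.925 ± 0.535 and 0.256 ± 0.026 (SD, n = 3). The level of Slc10a1 per kilobase was 461 to 985 times that of Abcc4 in FPC control mice, 23.3 to 71.4 times in mild and 0.749 to 8.23 times in advanced mice. In the CDAHFD study the same ratio was 947 to 4309 in controls, 13.6 to 17.7 in mild and 2.38 to 4.96 in advanced mice. The groups of a study did not overlap in this ratio.

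**Figure D1:**
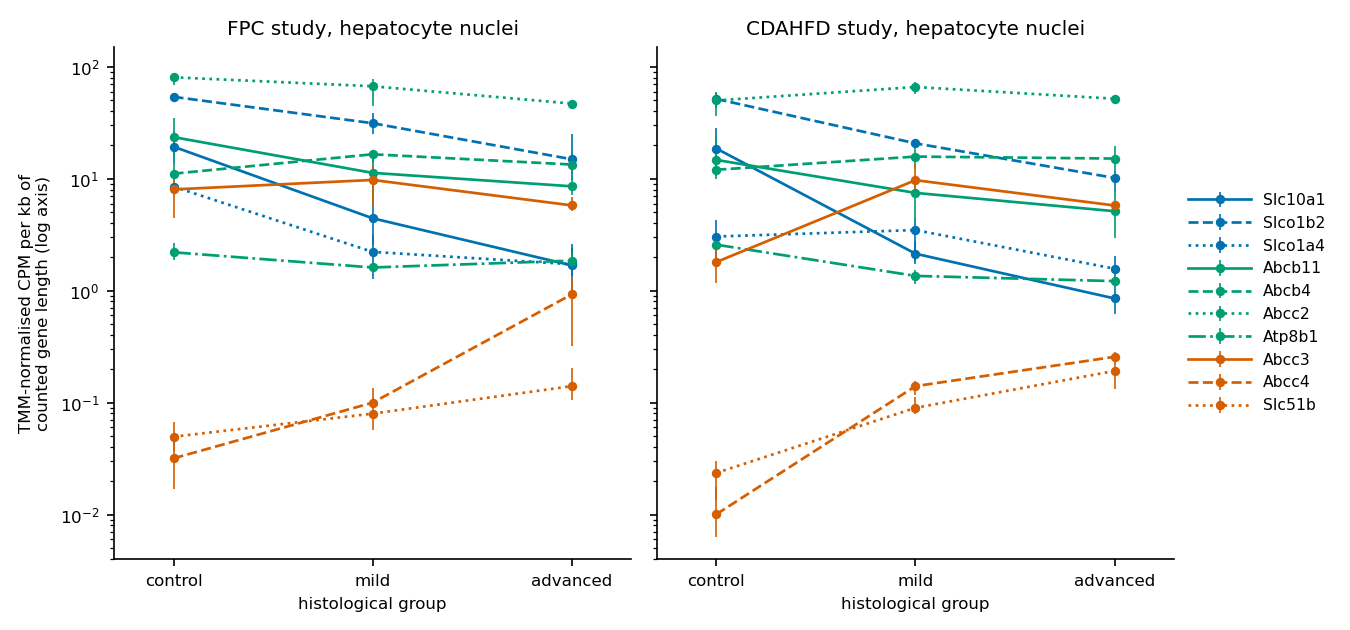
Level of each of the 10 transporter genes in hepatocyte nuclei, in TMM CPM per kilobase of gene (log axis), for control, mild and advanced mice of both studies; points are group means joined by lines, and bars run from the lowest to the highest mouse (n = 3 or 4). Abcc4 stands lowest in FPC controls at 0.0318 ± 0.0142 and at 0.925 ± 0.535 in advanced FPC mice, while Slc10a1 goes from 19.3 ± 5.52 to 1.68 ± 0.851.

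Against their own controls, hepatocyte nuclei of advanced FPC mice had 2 of the 10 genes higher and 5 lower by edgeR's quasi-likelihood test (p-values adjusted by Benjamini-Hochberg across the whole table), beside 26.5% and 20.4% of all genes. Those of mild FPC mice had 2 higher and 4 lower, beside 21.8% and 11.3%. Advanced CDAHFD mice had 3 higher and 5 lower, beside 30.3% and 29.2%, and mild CDAHFD mice 3 and 4, beside 29.6% and 26.7%. The lower calls fell on uptake and canalicular genes and the higher calls on efflux genes, apart from Abcb4, which rose in mild FPC mice. The median log2 fold change of the 10 genes was -0.50 in advanced FPC mice (0.00 over all genes), -0.27 in mild FPC mice (0.04), -0.44 in advanced CDAHFD mice (0.00) and 0.30 in mild CDAHFD mice (0.03). Advanced and mild mice were compared with the same controls, so their results are not independent of each other.

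**Figure D2:**
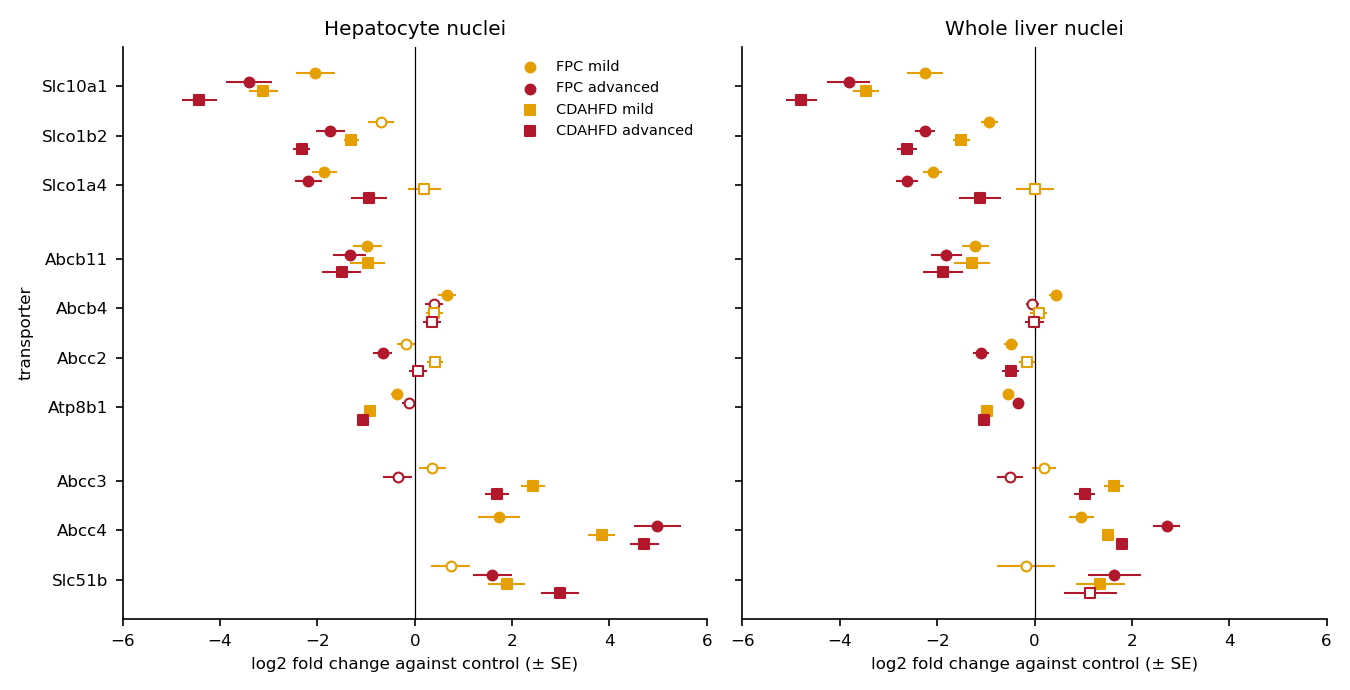
Log2 fold change of the 10 genes against control in the 4 disease comparisons of each fraction, with bars of 1 standard error from the edgeR fit; filled symbols passed the test and open ones did not. Slc10a1 is the lowest in each hepatocyte comparison (-2.04 to -4.42) and Abcc4 the highest (1.73 to 4.98).

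Slc10a1 (chr12:80953185-80968079, minus strand, mm10), the main sodium-driven carrier of conjugated bile acids, was lower in every diseased group. Control FPC hepatocyte nuclei held 207, 247, 298 and 398 TMM CPM, mild mice 37.8, 39.3, 78.0 and 109, and advanced mice 14.9, 21.0 and 39.2. Both diseased groups lay wholly below the controls, and the lowest mild mouse lay just under the highest advanced mouse. The log2 fold change against control was -3.40 ± 0.47 (adjusted p = 0.00011) in advanced and -2.04 ± 0.40 (adjusted p = 0.0021) in mild FPC mice. CDAHFD control mice held 157, 248, 284 and 418, mild mice 27.5, 27.8, 30.6 and 41.5, and advanced mice 9.19, 12 and 16.9. These 3 groups did not overlap at all. The log2 fold change was -4.42 ± 0.36 (adjusted p = 2.1e-06) in advanced and -3.11 ± 0.29 (adjusted p = 1e-05) in mild CDAHFD mice, and all 4 calls held without any single mouse.

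Slco1b2 (chr6:141629518-141686635, plus strand), the mouse counterpart of the human OATP1B carriers, takes up unconjugated bile acids, bilirubin and many drugs. It held 2819, 2985, 3198 and 3295 TMM CPM in FPC controls, 1420.3, 1705, 1829.8 and 2191 in mild mice, and 558, 562 and 1435 in advanced mice. Mouse Advanced_6826 was the highest of its group and reached the mild range, while the other 2 lay well below it. Slco1b2 fell in advanced FPC mice (log2 fold change -1.73 ± 0.30, adjusted p = 0.00043), and without mouse Advanced_6826 the log2 fold change was -2.33. In mild FPC mice it did not pass the test (-0.70 ± 0.27, adjusted p = 0.063), although all mild mice lay below all controls; it passed with DESeq2 (-0.72, adjusted p = 0.027) and with both groups fitted alone (-0.71, adjusted p = 0.0058). CDAHFD controls held 2447, 2969, 2988 and 3359.7, mild mice 1085, 1169, 1176 and 1296, and advanced mice 448, 617 and 675. There the groups were fully separate, and Slco1b2 fell in advanced (-2.32 ± 0.17, adjusted p = 9.9e-07) and in mild mice (-1.31 ± 0.15, adjusted p = 2.9e-05).

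Slco1a4 (chr6:141805440-141856171, minus strand), another organic anion carrier of the blood side, which also moves steroid conjugates and cardiac glycosides, differed between the studies already in its control level. FPC controls held 411, 413, 443 and 457 TMM CPM, mild mice 65.0, 102, 124 and 159.5, and advanced mice 68.6, 70.9 and 122. Slco1a4 fell in mild (log2 fold change -1.85 ± 0.25, adjusted p = 0.00012) and in advanced FPC mice (-2.18 ± 0.28, adjusted p = 3.5e-05), with diseased mice entirely under the controls and the 2 stages overlapping. CDAHFD controls held 85.7, 125, 188 and 219, mild mice 88.4, 165, 225 and 227, and advanced mice 60.1, 76.3 and 103, and all 3 ranges overlapped. The log2 fold change in mild CDAHFD mice was 0.20 ± 0.34 (adjusted p = 0.64). In advanced CDAHFD mice it was -0.94 ± 0.37 (adjusted p = 0.0474), a call lost when any 1 of mice Control_10110, Control_10113, Advanced_9896 and Advanced_10104 was left out (adjusted p = 0.1 to 0.15) and under scaling by library totals alone (-0.45, adjusted p = 0.3), RLE scaling (the median-ratio size factors), no filter on low counts and a stricter filter (a minimum count of 50; adjusted p = 0.0502 to 0.063).

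**Figure D3:**
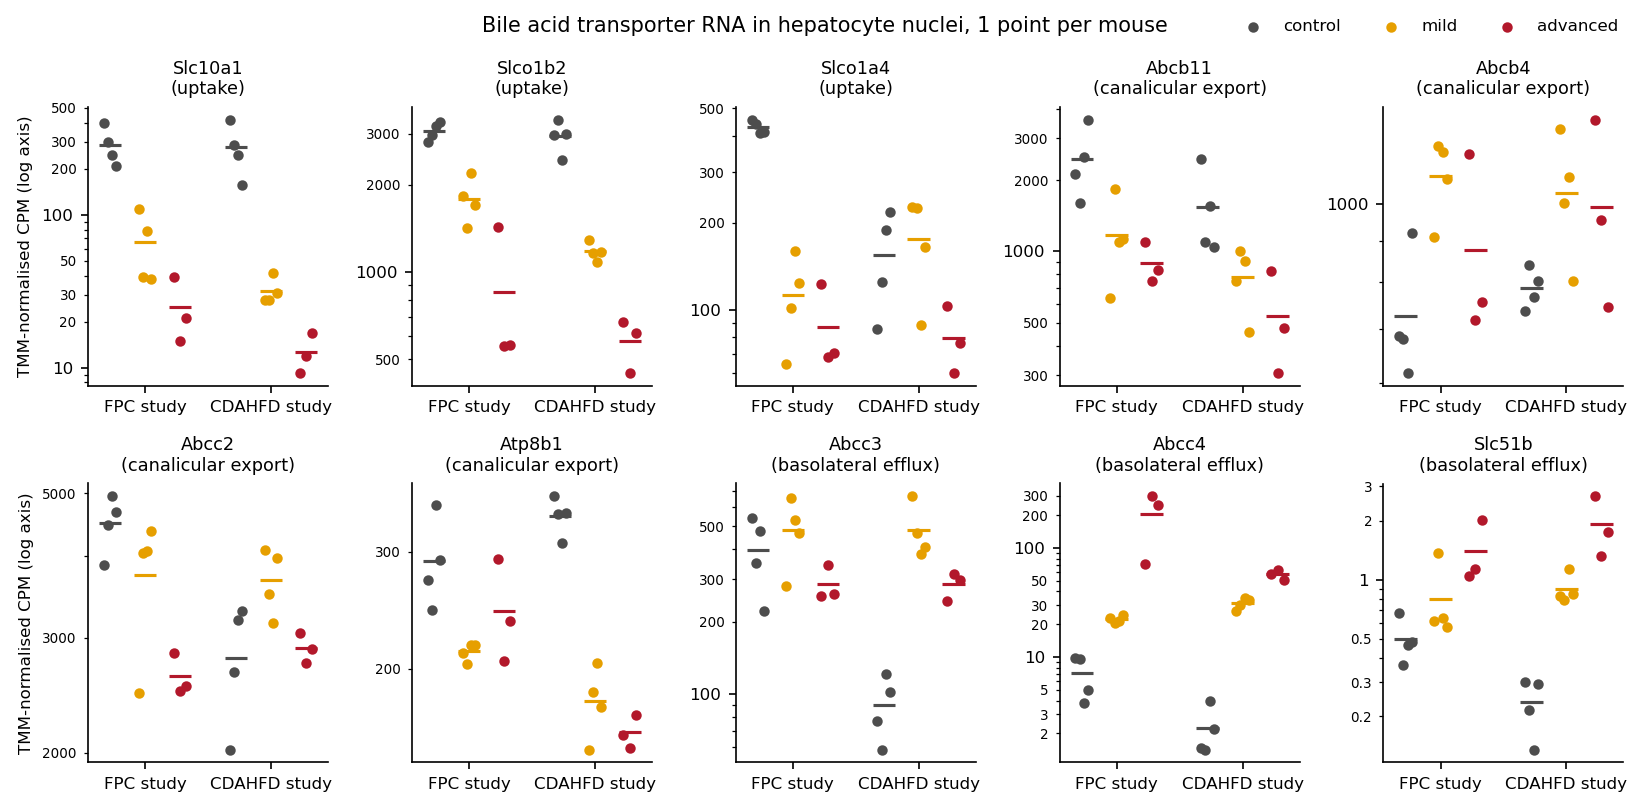
TMM CPM of each gene (log axis) in every hepatocyte library, by study and stage; points are mice and short lines group means. Slc10a1 drops from 157 to 418 in CDAHFD controls to 9.19 to 16.9 in advanced mice, and Abcc3 stands lower in CDAHFD controls (58.3 to 121) than in FPC controls (221 to 542).

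Abcb11 (chr2:69238282-69342616, minus strand), the pump for bile salts, fell in all 4 comparisons with control. FPC controls held 1594, 2121, 2496 and 3601 TMM CPM, mild mice 632, 1100.0, 1129 and 1841, and advanced mice 750.4, 832 and 1093. The controls spread widely, the highest mild mouse lay inside their range, and the advanced mice lay below it. The log2 fold change was -1.34 ± 0.34 (adjusted p = 0.0055) in advanced and -0.98 ± 0.30 (adjusted p = 0.025) in mild FPC mice. CDAHFD controls held 1039, 1093, 1553 and 2449.5, mild mice 457, 748, 907 and 1003, and advanced mice 306, 475 and 823. Here both diseased groups lay under all controls, with a log2 fold change of -1.5 ± 0.40 (adjusted p = 0.0074) in advanced and -0.97 ± 0.36 (adjusted p = 0.038) in mild mice. The advanced calls held without any single mouse, whereas the mild FPC call was lost when any 1 of mice Control_6952, Control_6953, Mild_6887 and Mild_6888 was left out (adjusted p = 0.0518 to 0.083) and the mild CDAHFD call when any 1 of mice Control_9862, Control_10110, Mild_9852, Mild_9894 and Mild_10102 was left out (adjusted p = 0.0542 to 0.11); both mild calls were also lost under library totals alone (-0.71, adjusted p = 0.075 and -0.62, adjusted p = 0.15), and the CDAHFD one without a filter (0.0519). The antisense gene Gm13613 covers 23.2% of the Abcb11 gene body, and the strand setting of the authors' counting is not given in the sources used here, so reads of the pair cannot be told apart.

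Abcb4 (chr5:8893721-8959226, plus strand), the phosphatidylcholine floppase of the same membrane, did not follow Abcb11. FPC controls held 617, 679.5, 686 and 919.8 TMM CPM, mild mice 910.3, 1076, 1160.0 and 1182, and advanced mice 719, 757 and 1153. Abcb4 rose in mild FPC mice (log2 fold change 0.66 ± 0.18, adjusted p = 0.012), although the lowest mild mouse lay just under the highest control, and its log2 fold change in advanced mice was 0.39 ± 0.19 (adjusted p = 0.11). CDAHFD controls held 738, 768, 803 and 839.7, mild mice 804, 1004, 1080.2 and 1239, and advanced mice 746, 954 and 1272, with overlapping ranges and log2 fold changes of 0.40 ± 0.17 (adjusted p = 0.064) in mild and 0.35 ± 0.18 (adjusted p = 0.12) in advanced mice. The advanced FPC comparison passed without mouse Control_6953 (0.52, adjusted p = 0.04), the advanced CDAHFD comparison without mouse Advanced_10104 (0.52, adjusted p = 0.031), and the mild CDAHFD comparison without mouse Mild_10102 (0.48, adjusted p = 0.037), with the stricter filter (adjusted p = 0.0472) and with both groups fitted alone (0.029). All 3 passed under library totals alone, at 0.79 (adjusted p = 0.0016) in advanced FPC mice, 0.84 (adjusted p = 0.0017) in advanced CDAHFD mice and 0.74 (adjusted p = 0.0029) in mild CDAHFD mice. At no stage was Abcb4 called lower in hepatocyte nuclei.

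Abcc2 (chr19:43782308-43838218, plus strand), the canalicular exporter of bilirubin glucuronides and divalent bile acid conjugates, had the highest level per kilobase of the 10 genes in FPC controls. FPC controls held 3877, 4471, 4685 and 4950.0 TMM CPM, mild mice 2469, 4045, 4076 and 4374, and advanced mice 2488, 2527 and 2846. Abcc2 fell in advanced FPC mice (log2 fold change -0.66 ± 0.20, adjusted p = 0.015), where all 3 mice lay below all controls; the call was lost when mouse Advanced_6904 was left out (adjusted p = 0.0501) and under library totals alone (-0.26, adjusted p = 0.28). Its value in mild FPC mice was -0.18 ± 0.18 (adjusted p = 0.48). CDAHFD controls held 2021, 2658, 3197 and 3295, mild mice 3159.7, 3498, 3981 and 4095, and advanced mice 2746, 2883 and 3052. These ranges overlapped, and the log2 fold change was 0.07 ± 0.18 (adjusted p = 0.77) in advanced and 0.41 ± 0.17 (adjusted p = 0.0524) in mild mice. The mild value passed without mouse Control_10110, mouse Control_10113 or mouse Mild_9894 (adjusted p = 0.027 to 0.0457), with the stricter filter (0.04) and with DESeq2 (0.031), and both CDAHFD values passed upward under library totals alone (0.56, adjusted p = 0.015 in advanced and 0.75, adjusted p = 0.002 in mild mice).

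Atp8b1, the flippase whose human counterpart is mutated in a familial form of intrahepatic cholestasis, changed by study. CDAHFD control hepatocyte nuclei held 309.5, 342, 343 and 364 TMM CPM, mild mice 151, 175, 185 and 204, and advanced mice 152, 159 and 170.2. No diseased CDAHFD mouse came near the controls, and Atp8b1 fell, with a log2 fold change of -1.06 ± 0.12 (adjusted p = 1.6e-05) in advanced and -0.92 ± 0.11 (adjusted p = 3.3e-05) in mild mice. FPC controls held 246, 272, 291 and 353, mild mice 203, 212, 217 and 217, and advanced mice 205, 236 and 293. The advanced value did not pass (-0.12 ± 0.14, adjusted p = 0.51), and the mild value passed barely (-0.36 ± 0.13, adjusted p = 0.0497). The mild call was lost when any 1 of mice Control_6816, Control_6952, Control_6953, Mild_6825, Mild_6886, Mild_6887 and Mild_6888 was left out (adjusted p = 0.069 to 0.16), without a filter, with the stricter filter (adjusted p = 0.059 and 0.073) and under library totals alone (-0.12, adjusted p = 0.45).

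Of the efflux genes, Abcc4 (chr14:118482692-118706219, minus strand) changed most. It encodes a pump that sends bile acids with glutathione, and cyclic nucleotides and prostaglandins, into blood. FPC controls held 3.76, 5.03, 9.71 and 9.89 TMM CPM, mild mice 20.5, 21.4, 22.9 and 24.3, and advanced mice 71.5, 249.9 and 298. The groups were fully apart, and mouse Advanced_6826, which had the highest Slc10a1, Slco1b2 and Slco1a4 of its group, had the lowest Abcc4. The log2 fold change was 4.98 ± 0.48 (adjusted p = 6.4e-06) in advanced and 1.73 ± 0.42 (adjusted p = 0.0086) in mild FPC mice. CDAHFD controls held 1.42, 1.46, 2.20 and 3.92, mild mice 26.4, 30.0, 33.7 and 35.2, and advanced mice 51.1, 57.9 and 62.7. These groups did not overlap either, with a log2 fold change of 4.72 ± 0.29 (adjusted p = 2.9e-07) in advanced and 3.84 ± 0.28 (adjusted p = 1.5e-06) in mild mice. All 4 calls held without any single mouse and under every other setting tried.

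Abcc4 is also expressed in cells other than hepatocytes, and cholangiocyte markers rose in the same libraries. The summed level of the 12 cholangiocyte markers in hepatocyte nuclei was 583 to 647 TMM CPM in FPC controls, 1035 to 1517 in mild and 3984 to 5777 in advanced mice. In the CDAHFD study it was 443 to 557, 717 to 1393 and 1361 to 1939. No marker of this list was at 0 in a whole group. Among them, the keratin gene Krt19 went from 0.0485 to 0.366 TMM CPM in FPC controls to 1.97 to 5.28 in advanced mice, and Epcam, an epithelial adhesion gene, from 0 to 0.361 to 6.71 to 12.4. The same values stand beside the rises of Abcc3 and Slc51b below, and the part of these cells in the rise of any of the 3 genes was not tested.

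Abcc3 (chr11:94343295-94392976, minus strand), which exports glucuronides and bile acids to blood, rose in the CDAHFD study. There, controls held 58.3, 76.6, 102 and 121 TMM CPM, mild mice 382, 409.9, 467 and 668, and advanced mice 243, 299 and 317. All diseased mice lay above all controls, and the log2 fold change was 2.44 ± 0.24 (adjusted p = 1.3e-05) in mild and 1.69 ± 0.25 (adjusted p = 0.00013) in advanced mice. FPC controls held 221, 352, 478 and 542, already at the level of diseased CDAHFD mice; mild FPC mice held 282, 469, 532 and 653, and advanced mice 257, 261 and 343. These ranges overlapped, and the log2 fold change was 0.36 ± 0.28 (adjusted p = 0.35) in mild and -0.35 ± 0.31 (adjusted p = 0.37) in advanced FPC mice.

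Slc51b (chr9:65412753-65422773, minus strand) encodes the short beta subunit of the organic solute carrier, which needs the alpha subunit encoded by Slc51a. It was rare, with 2 to 48 counts in a hepatocyte library. FPC controls held 0.366, 0.464, 0.479 and 0.679 TMM CPM, mild mice 0.574, 0.617, 0.636 and 1.37, and advanced mice 1.05, 1.14 and 2.03. It rose in advanced FPC mice (log2 fold change 1.60 ± 0.41, adjusted p = 0.006), all of them above all controls, and in mild mice its value was 0.74 ± 0.40 (adjusted p = 0.19). CDAHFD controls held 0.135, 0.215, 0.293 and 0.301, mild mice 0.785, 0.830, 0.850 and 1.13, and advanced mice 1.33, 1.76 and 2.67, and the 3 groups were apart. The log2 fold change was 2.98 ± 0.39 (adjusted p = 5e-05) in advanced and 1.89 ± 0.38 (adjusted p = 0.0014) in mild CDAHFD mice. Slc51a had 1 count over all 44 libraries, so no value for the partner subunit was detectable at this depth. Rasl12, a Ras-like gene on the opposite strand with up to 64 counts in a library, overlaps 21.0% of the Slc51b gene body, so counts of these 2 genes cannot be told apart there.

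Advanced and mild hepatocyte nuclei of the FPC study were then compared directly. Here 1 of the 10 genes was higher in advanced mice and 2 were lower, beside 12.7% and 7.49% of all genes. The gene that rose with stage was Abcc4 (log2 fold change 3.25 ± 0.45, adjusted p = 0.0004), higher in 3 of 3 advanced mice than in any mild mouse. Slc10a1 (-1.36 ± 0.43, adjusted p = 0.0452) and Slco1b2 (-1.04 ± 0.30, adjusted p = 0.026) fell further. The Slc10a1 call was lost when any 1 of mice Mild_6825, Mild_6887, Advanced_6880 and Advanced_6904 was left out (adjusted p = 0.099 to 0.17), and the Slco1b2 call when any 1 of mice Mild_6887, Advanced_6880 and Advanced_6904 was left out (adjusted p = 0.076 to 0.11); neither passed when mild and advanced libraries were fitted alone (-1.37, adjusted p = 0.06 and -1.05, adjusted p = 0.068). RLE scaling, no filter and library totals alone also ended the Slc10a1 call (adjusted p = 0.0525 to 0.072). Atp8b1 passed upward under library totals alone (0.39, adjusted p = 0.0471), against 0.24 ± 0.14 (adjusted p = 0.28) in the reported fit. Without mouse Advanced_6826 the Slco1b2 value was -1.63. Without mouse Mild_6825, Abcc2 (-0.63, adjusted p = 0.013) and Abcc3 (-0.90, adjusted p = 0.035) also passed, and without mouse Mild_6886, Slc51b did (1.23, adjusted p = 0.041). In the CDAHFD study 0 genes were called higher (2 at an unadjusted p under 0.05 and 1 by DESeq2) and 2 lower, beside 1.3% and 1.52% of all genes. Both of the latter were again uptake genes, Slc10a1 (-1.31 ± 0.31, adjusted p = 0.0488) and Slco1b2 (-1.02 ± 0.16, adjusted p = 0.009). The first was lost in each of the 7 fits that left out 1 mouse (adjusted p = 0.056 to 0.16) and under RLE scaling, no filter, the stricter filter and library totals alone (0.0513 to 0.058), and the latter when mouse Advanced_9896 was left out (adjusted p = 0.0506). Abcc4 stood at 0.88 ± 0.25 (adjusted p = 0.079) in this comparison, with all advanced mice above all mild mice, and passed with DESeq2 (0.90, adjusted p = 0.013), with both groups fitted alone (0.89, adjusted p = 0.0087) and under library totals alone (1.03, adjusted p = 0.045). DESeq2 also called Slco1a4 lower (-1.11, adjusted p = 0.034).

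The whole liver nuclei come from all liver cells. Advanced FPC livers had 2 genes higher and 6 lower, beside 31.3% and 28% of all genes, and mild FPC livers 2 and 6, beside 25% and 18.2%. Advanced CDAHFD livers had 2 and 6, beside 29.7% and 25.9%, and mild CDAHFD livers 3 and 4, beside 27.7% and 24.5%. Slc10a1, Slco1b2, Abcb11 and Atp8b1 fell in all 4 comparisons, although library totals alone turned the sign of Atp8b1 in advanced FPC livers. For Slc10a1 the whole liver controls held 185, 229, 265 and 354 TMM CPM in the FPC study and advanced livers 13.1, 14.6 and 28.4, a log2 fold change of -3.82 ± 0.44 (adjusted p = 1.8e-05). CDAHFD controls held 150.2, 256, 283 and 415 and advanced livers 10.1, 10.2 and 10.5 (-4.79 ± 0.32, adjusted p = 1.9e-07). Abcb11 changed by -1.81 ± 0.32 (adjusted p = 0.00034) in advanced FPC livers and by -1.88 ± 0.41 (adjusted p = 0.0024) in advanced CDAHFD livers. Abcc2 fell in advanced FPC (-1.10 ± 0.17, adjusted p = 9.7e-05), mild FPC (-0.48 ± 0.15, adjusted p = 0.02) and advanced CDAHFD livers (-0.49 ± 0.18, adjusted p = 0.036).

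Abcc4 rose in whole liver too, from 21.0, 24.9, 31.9 and 32.1 TMM CPM in FPC controls to 52.4, 52.6, 53.0 and 59.6 in mild and 88.6, 209 and 257 in advanced livers, with log2 fold changes of 0.95 ± 0.26 (adjusted p = 0.01) and 2.72 ± 0.28 (adjusted p = 5.4e-06). CDAHFD controls held 21.4, 22, 26.7 and 29.4, mild livers 67.4, 74.3, 74.6 and 81.4, and advanced livers 82.7, 88.8 and 94.4 (1.5 ± 0.12, adjusted p = 5e-07 in mild and 1.79 ± 0.12, adjusted p = 1.6e-07 in advanced). The control levels in whole liver were above those in hepatocyte nuclei, while the advanced levels were closer. Abcc3 rose in mild (1.63 ± 0.21, adjusted p = 3.5e-05) and advanced CDAHFD livers (1.03 ± 0.22, adjusted p = 0.0014). Abcb4 rose in mild FPC livers (0.43 ± 0.13, adjusted p = 0.015), and Slc51b in advanced FPC (1.64 ± 0.54, adjusted p = 0.021) and mild CDAHFD livers (1.35 ± 0.51, adjusted p = 0.041), from 1 to 57 counts in a library. Abcb4 did not pass in advanced FPC (-0.05 ± 0.14, adjusted p = 0.77) or advanced CDAHFD livers (0.00 ± 0.19, adjusted p = 0.98), where library totals alone gave 0.39 (adjusted p = 0.019) and 0.46 (adjusted p = 0.0463). Several whole liver calls were lost in other fits. Atp8b1 in advanced FPC livers was lost when any 1 of mice Control_6952, Advanced_6880 and Advanced_6904 was left out (adjusted p = 0.057 to 0.09), Slc51b there when any 1 of mice Control_6852, Advanced_6880 and Advanced_6904 was left out (adjusted p = 0.0504 to 0.072), and Slc51b in mild CDAHFD livers when any 1 of mice Control_9867, Control_10110, Control_10113, Mild_9894 and Mild_10102 was left out (adjusted p = 0.072 to 0.12). Abcc2 in advanced CDAHFD livers was lost when any 1 of mice Control_9862, Control_10110, Control_10113, Advanced_9845, Advanced_9896 and Advanced_10104 was left out (adjusted p = 0.0524 to 0.1), Slco1a4 there (-1.11 ± 0.43, adjusted p = 0.0488) when any 1 of mice Control_9862, Control_10110, Control_10113, Advanced_9845, Advanced_9896 and Advanced_10104 was left out (adjusted p = 0.055 to 0.17), and Abcc2 in mild FPC livers when mouse Control_6952 was left out (adjusted p = 0.0526). Slco1a4 in advanced CDAHFD livers was also lost without a filter (adjusted p = 0.072) and with the stricter filter (0.0519), and Abcc2 there with the stricter filter (0.0522). Library totals alone brought past the threshold Abcb4 in mild CDAHFD livers (0.46, adjusted p = 0.038, against 0.08 ± 0.17, adjusted p = 0.72) and Slc51b in advanced CDAHFD livers (1.61, adjusted p = 0.021, against 1.15 ± 0.54, adjusted p = 0.088). Library totals alone ended the calls of Abcc2 (adjusted p = 0.34) and Atp8b1 (0.068) in mild FPC livers, of Slco1a4 (0.19) and Abcc2 (0.89) in advanced CDAHFD livers and of Abcb11 (0.0509) in mild CDAHFD livers. Under library totals alone the sign of Atp8b1 in advanced FPC livers turned to 0.11 (adjusted p = 0.43) from -0.33 ± 0.12 (adjusted p = 0.026).

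Hepatocyte nuclei were next set against whole liver nuclei of the same mice, without a term for the mouse. In FPC controls 0 genes were higher by edgeR (1 at an unadjusted p under 0.05 and 0 by DESeq2) and 1 was lower in hepatocyte nuclei, beside 1.35% and 16.2% of all genes. The lower gene was Abcc4 (log2 fold change -2.01 ± 0.38, adjusted p = 0.00033), whose hepatocyte level was 17.9% to 30.8% of the whole liver level of the same mouse. In advanced FPC mice 2 were higher and 0 lower (0 at an unadjusted p under 0.05 and 0 by DESeq2), beside 4.83% and 17.7%: Abcb4 (0.58 ± 0.18, adjusted p = 0.024) and Abcc2 (0.63 ± 0.18, adjusted p = 0.015) were above whole liver, both calls lost without mouse Advanced_6826 (adjusted p = 0.12 and 0.13). Atp8b1 passed there without a filter (0.39, adjusted p = 0.0496) and with DESeq2 (0.38, adjusted p = 0.039). Abcc4 stood at 0.12 ± 0.40 (adjusted p = 0.87) in these mice, or 80.7% to 119.8% of whole liver. In CDAHFD controls 1 gene was higher and 1 was lower, beside 14.6% and 16.4%. Abcc4 was the lower one (-3.46 ± 0.22, adjusted p = 6.5e-11), at 5.30% to 13.4% of whole liver (without mice Control_9862 and Control_9867, -3.10, adjusted p = 2.1e-08), and Atp8b1 the higher one (0.27 ± 0.10, adjusted p = 0.035). In advanced CDAHFD mice 4 were higher and 1 was lower, beside 20.1% and 23%. The higher ones were Abcb4 (0.54 ± 0.20, adjusted p = 0.036), Abcc2 (0.85 ± 0.19, adjusted p = 0.00089), Abcc3 (0.66 ± 0.26, adjusted p = 0.0476) and Slc51b (1.53 ± 0.45, adjusted p = 0.0084), and Abcc4 was lower (-0.63 ± 0.22, adjusted p = 0.025), at 61.4% to 70.6% of whole liver. Of these, Abcb4 (adjusted p = 0.062 to 0.13), Abcc3 (0.099 to 0.2) and Abcc4 (0.063 to 0.1) were lost in each fit that left out 1 of the 3 advanced mice, and Slc51b without mouse Advanced_9845 (0.94, adjusted p = 0.15). RLE scaling and library totals alone also ended the calls of Abcb4 (adjusted p = 0.0505 and 0.089) and Abcc3 (0.068 and 0.097), the latter also lost with the stricter filter (0.058) and with DESeq2 (0.055). The Atp8b1 call in CDAHFD controls was lost in each fit that left out 1 of the 4 control mice (adjusted p = 0.069 to 0.098), without mice Control_9862 and Control_9867 together (0.21, adjusted p = 0.35), and under RLE scaling, DESeq2 and library totals alone (adjusted p = 0.35 to 0.87).

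With the mouse as a replicate block, more of these small differences passed. In FPC controls Slco1a4, Abcb11, Abcb4, Abcc2, Atp8b1 and Abcc3 were then also higher in hepatocyte nuclei, from a log2 difference of 0.23 for Abcc3 to 0.32 for Slco1a4. In advanced FPC mice the uptake and canalicular genes and Abcc3 were all higher, from 0.26 for Abcc3 to 0.63 for Abcc2. In CDAHFD controls Slco1b2 (0.21, adjusted p = 0.0476), Abcb4 (0.28, adjusted p = 0.0085) and Abcc2 (0.38, adjusted p = 0.0088) passed besides Atp8b1 and Abcc4. Without the crosswise mice the paired fit called Abcb11 (0.31, adjusted p = 0.0085), Abcb4 (0.29, adjusted p = 0.0097), Abcc2 (0.34, adjusted p = 0.0034), Atp8b1 (0.21, adjusted p = 0.044) and Abcc4 (-3.11, adjusted p = 1.6e-08). In advanced CDAHFD mice Slco1b2 (0.40, adjusted p = 0.0026) and Slco1a4 (0.44, adjusted p = 0.0491) were added. Abcc4 was the one gene of the 10 called lower in hepatocyte nuclei in any of these fits.

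The test of whether disease changed a gene differently in the 2 fractions called Abcc4 in both studies. In the FPC study 1 of the 10 genes had a higher log2 change in hepatocyte nuclei and 0 a lower one (0 at an unadjusted p under 0.05 and 0 by DESeq2), beside 2.83% and 0.984% of all genes, and in the CDAHFD study likewise 1 and 0 (0 at an unadjusted p under 0.05 and 0 by DESeq2), beside 3.63% and 6.62%. A log2 change is relative to the control level of its own fraction. From control to advanced FPC mice, mean Abcc4 went from 7.10 to 207 TMM CPM in hepatocyte nuclei and from 27.5 to 185 in whole liver. In the CDAHFD study it went from 2.25 to 57.3 and from 24.9 to 88.6. The log2 change of Abcc4 in advanced mice was 2.13 ± 0.55 (adjusted p = 0.03) above that of whole liver in the FPC study and 2.84 ± 0.31 (adjusted p = 4.9e-06) above it in the CDAHFD study. The FPC call was lost when any 1 of mice Control_6852, Control_6952, Control_6953, Advanced_6880 and Advanced_6904 was left out (adjusted p = 0.061 to 0.11). The paired fit gave 2.08 (adjusted p = 1.4e-05) and 2.88 (adjusted p = 9e-06) and added Abcc2 (0.32, adjusted p = 0.043) in the FPC study and Abcc3 (0.56, adjusted p = 0.015) in the CDAHFD study. Without mice Control_9862 and Control_9867 the CDAHFD value was 2.42 (adjusted p = 0.00011) and the paired fit then also called Abcc2 (0.45, adjusted p = 0.0054) and Abcc3 (0.56, adjusted p = 0.006). In single mice, the hepatocyte level of Abcc4 as a share of whole liver was 17.9% to 30.8% in FPC controls, 38.4% to 46.4% in mild and 80.7% to 119.8% in advanced mice. It was 5.30% to 13.4%, 39.1% to 47.3% and 61.4% to 70.6% in the CDAHFD study, and the groups of each study were apart. Without mice Control_9862 and Control_9867 the CDAHFD controls stood at 9.99% and 13.4%.

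The hepatocyte level as a share of whole liver for the summed endothelial markers, a list of another cell type, was 9.93% to 11.4% in FPC controls, 14.4% to 26.6% in mild and 9.44% to 14.5% in advanced mice, and 7.90% to 12.1%, 12.9% to 14.2% and 13.9% to 18% in the CDAHFD study. For the summed cholangiocyte markers it was 103% to 115%, 114% to 132% and 146% to 164% in the FPC study, and 87.7% to 115%, 105% to 111% and 105% to 108% in the CDAHFD study. For the lymphocyte markers it was 15.8% to 40.4%, 51.9% to 85.4% and 25.8% to 59.5% in the FPC study, and 8.60% to 20.0%, 40.8% to 55% and 28.8% to 43.8% in the CDAHFD study. For the hepatocyte markers it was 111% to 132%, 126% to 142% and 136% to 150.3%, and 90.6% to 124%, 156% to 169.8% and 153% to 174%. For the macrophage markers it was 8.82% to 12.3% in FPC controls and 13.1% to 14.8% in advanced mice, and 4.56% to 9.30% and 9.29% to 12% in the CDAHFD study, and for the stellate cell markers 23.8% to 38.4% and 19.7% to 26.6%, and 25.2% to 47.1% and 32.1% to 41.7%. In the CDAHFD study the shares of the lymphocyte, endothelial and hepatocyte markers were higher in every diseased mouse than in any control, as for Abcc4. Those of the cholangiocyte, macrophage and stellate cell markers overlapped the controls there. In advanced FPC mice the shares of the cholangiocyte, hepatocyte and macrophage markers lay wholly above the controls, as for Abcc4. The endothelial, lymphocyte and stellate cell shares of advanced FPC mice overlapped the controls. In mild FPC mice only the endothelial and lymphocyte shares lay wholly above the controls, as for Abcc4. The CDAHFD control ranges of all these lists include mice Control_9862 and Control_9867. The part of these cell types in the Abcc4 result was not tested.

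**Figure D4:**
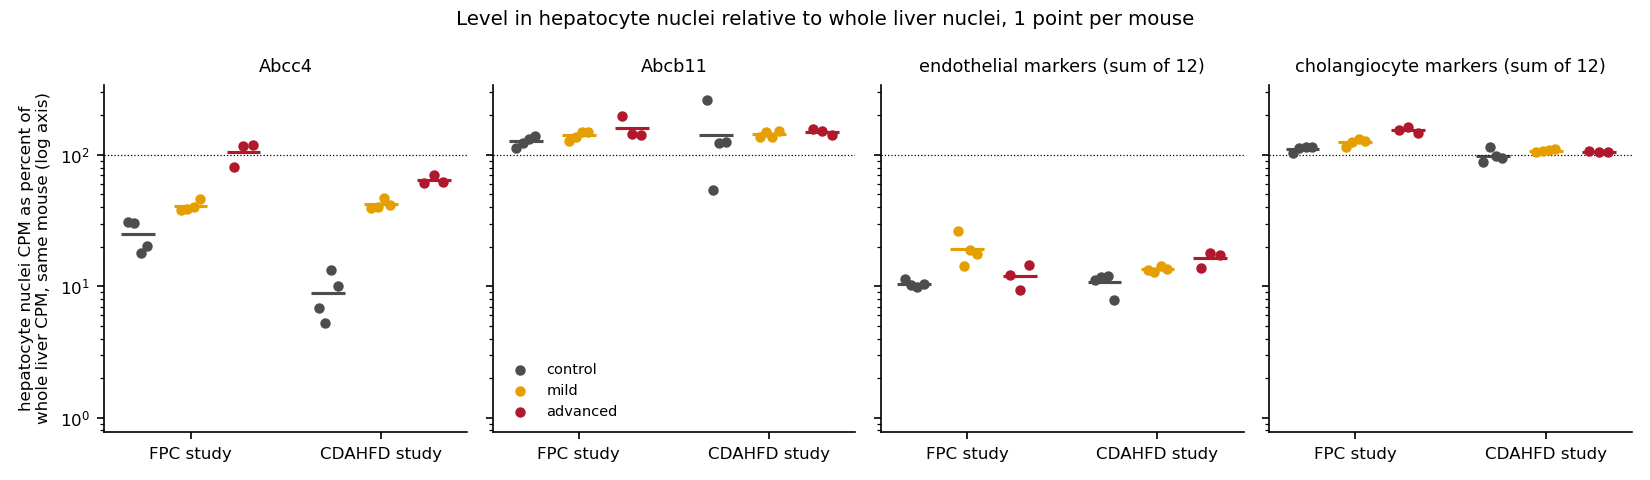
Hepatocyte level as a percentage of the whole liver level of the same mouse (log axis) for Abcc4, Abcb11 and the summed endothelial and cholangiocyte markers, by study and stage; points are mice, short lines group means and the dotted line marks equal levels. Abcc4 rises from 17.9% to 30.8% in FPC controls to 80.7% to 119.8% in advanced mice, and the endothelial markers stand at 9.93% to 11.4% and 9.44% to 14.5%. The CDAHFD controls include mice Control_9862 and Control_9867, whose libraries matched crosswise. Their Abcb11 values are 260.5% and 53.8%, beside 123% and 126% in the other CDAHFD controls.

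Finally, the change under CDAHFD was set against the change under FPC in hepatocyte nuclei, each against its own controls. Diet, time on diet and study cannot be told apart in this comparison. At the advanced stage 1 gene changed more toward higher levels under CDAHFD and 1 more toward lower levels, beside 4.5% and 7.36% of all genes. These were Abcc3 (log2 difference of changes 2.10 ± 0.43, adjusted p = 0.0052) and Atp8b1 (-0.88 ± 0.18, adjusted p = 0.0046). At the mild stage 3 were higher and 0 lower (1 at an unadjusted p under 0.05 and 1 by DESeq2), beside 5.59% and 6.64%: Slco1a4 (2.14 ± 0.46, adjusted p = 0.0074), Abcc3 (2.15 ± 0.40, adjusted p = 0.0029) and Abcc4 (2.19 ± 0.54, adjusted p = 0.015). The controls of the FPC study held more of each of these 3 genes: Abcc3 was 221 to 542 TMM CPM in FPC controls and 58.3 to 121 in CDAHFD controls, and Slco1a4 411 to 457 and 85.7 to 219. Neither pair of ranges overlapped. Abcc4 was 3.76 to 9.89 TMM CPM in FPC controls and 1.42 to 3.92 in CDAHFD controls, which just overlapped, and 20.5 to 24.3 and 26.4 to 35.2 in mild mice. In mild mice the levels themselves overlapped for Abcc3, 282 to 653 under FPC and 382 to 668 under CDAHFD. The calls held without any single mouse, and DESeq2 added Slco1a4 (1.3, adjusted p = 0.0456) and Abcc2 (0.78, adjusted p = 0.022) at the advanced stage and Abcc2 (0.66, adjusted p = 0.036) and Atp8b1 (-0.48, adjusted p = 0.032) at the mild stage. Abcc2 at the advanced stage also passed with the stricter filter (0.79, adjusted p = 0.0485) and under library totals alone (0.81, adjusted p = 0.0467). Slc10a1 (-0.96 ± 0.55, adjusted p = 0.25) and Abcb11 (-0.10 ± 0.54, adjusted p = 0.92) did not pass at the advanced stage.

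Other genes of bile acid handling were read from 4 lists in hepatocyte nuclei against the same backgrounds and the median of 0.00 over all genes in both advanced comparisons. Of related transporters of the hepatocyte, 6 of 14 rose and 3 fell in advanced FPC mice, and 3 of 14 rose and 8 fell in advanced CDAHFD mice (median log2 fold changes 0.15 and -0.60). The organic anion carrier Slco1a1, a close relative of Slco1a4, had log2 fold changes of -6.29 ± 0.69 (adjusted p = 2.1e-05) in FPC and -6.91 ± 0.37 (adjusted p = 1.6e-07) in CDAHFD mice. Abcc1, an efflux pump for glutathione conjugates, had 4.18 ± 0.32 (adjusted p = 3.8e-07) in FPC and 3.46 ± 0.37 (adjusted p = 1.1e-05) in CDAHFD mice. Abcc5, an exporter of organic anions and nucleotides, had 3.36 ± 0.19 (adjusted p = 2.7e-08) in FPC and 2.83 ± 0.15 (adjusted p = 1.2e-07) in CDAHFD mice. Of genes that partner or place the canalicular transporters, 4 of 12 rose and 4 fell in advanced FPC mice, and 3 of 12 rose and 4 fell in advanced CDAHFD mice (median log2 fold changes 0.03 and 0.00). Stx3, a syntaxin of apical delivery, had 4.04 ± 0.30 (adjusted p = 2.7e-07) in FPC and 4.48 ± 0.26 (adjusted p = 2e-07) in CDAHFD mice. Ezr, an actin linker that is typical of cholangiocytes in liver, had 3.46 ± 0.25 (adjusted p = 1.9e-07) in FPC and 3.32 ± 0.24 (adjusted p = 8.2e-07) in CDAHFD mice, and the scaffold gene Slc9a3r1 had -1.38 ± 0.23 (adjusted p = 0.00029) in FPC and -0.06 ± 0.36 (adjusted p = 0.89) in CDAHFD mice.

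Of receptors and regulators, 1 of 18 rose and 11 fell in advanced FPC mice, and 1 of 18 rose and 10 fell in advanced CDAHFD mice (median log2 fold changes -0.75 and -0.66). Nr1h4, the bile acid receptor, fell in both, at -0.86 ± 0.27 (adjusted p = 0.018) in FPC and -1.25 ± 0.16 (adjusted p = 4e-05) in CDAHFD mice. Nr0b2, which encodes the repressor SHP and is a known target of that receptor, had -1.78 ± 0.54 (adjusted p = 0.018) in FPC and -1.05 ± 0.35 (adjusted p = 0.021) in CDAHFD mice. Nr1i3, the xenobiotic receptor CAR, had -1.72 ± 0.32 (adjusted p = 0.00078) in FPC and -0.69 ± 0.23 (adjusted p = 0.021) in CDAHFD mice, and the bile acid-responsive receptor gene S1pr2 had 1.35 ± 0.28 (adjusted p = 0.0015) in FPC and 1.49 ± 0.29 (adjusted p = 0.00089) in CDAHFD mice. Nfe2l2, which encodes the factor of the antioxidant response, did not pass at the advanced stage (0.34 ± 0.17, adjusted p = 0.12 in FPC and 0.23 ± 0.15, adjusted p = 0.22 in CDAHFD mice), and rose in mild FPC mice (0.66 ± 0.16, adjusted p = 0.0069). Of synthesis and conjugation enzymes, 12 of 17 fell in advanced FPC mice, and 2 of 17 rose and 13 fell in advanced CDAHFD mice (median log2 fold changes -1.08 and -1.20). Cyp7b1, of the acidic synthesis pathway, had -4.16 ± 1.11 (adjusted p = 0.011) in FPC and -4.26 ± 0.62 (adjusted p = 0.00015) in CDAHFD mice. Slc27a5, the bile acid-CoA ligase of conjugation, had -2.39 ± 0.20 (adjusted p = 8e-07) in FPC and -1.73 ± 0.27 (adjusted p = 0.00023) in CDAHFD mice, and Cyp8b1, the sterol hydroxylase needed for cholic acid, had -3.23 ± 0.41 (adjusted p = 3.7e-05) in FPC and -2.21 ± 0.44 (adjusted p = 0.0013) in CDAHFD mice. At the mild stage of the FPC study, where 21.8% of all genes were higher and 11.3% lower, 4 related transporters rose and 4 fell, 2 partner genes rose and 3 fell, 2 regulators rose and 5 fell, and 5 enzymes fell. At the mild stage of the CDAHFD study, beside 29.6% and 26.7% of all genes, 3 related transporters rose and 4 fell, 3 partner genes rose and 4 fell, 2 regulators rose and 6 fell, and 1 enzyme rose and 6 fell.

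The 22 hepatocyte libraries were also searched for genes whose log2 levels ran most like 3 of the members, among 13807 genes. These correlations are descriptions over libraries that share group, depth and scaling. The genes nearest to Slc10a1 were Apip (r = 0.97), Coq3 (r = 0.97) and Stard7 (r = 0.97). Among those nearest to Abcb11 were Lamp2 (r = 0.91) and Cks2 (r = 0.89), and those nearest to Abcc4 were Gal3st2 (r = 0.97), Glis2 (r = 0.97) and Ano1 (r = 0.97). Among the members, Slc10a1 ran with Slco1b2 (r = 0.93) and Atp8b1 (0.83) and opposite to Abcc4 (-0.86) and Slc51b (-0.85). Abcc4 and Slc51b ran together (r = 0.84), whereas Abcb11 and Abcb4, which share the canalicular membrane, did not (r = -0.21), nor did Abcc2 and Slc10a1 (0.18).

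The authors' deposited table gives log2 fold changes of their own for hepatocyte nuclei. In the authors' deposited table Slc10a1 stands at -3.42 and Abcc4 at 4.98 for advanced FPC mice. The authors' deposited table differs in call from the values above for Slco1b2 in mild FPC mice (adjusted p = 0.006), Abcb4 in mild CDAHFD mice (0.0499), Abcc2 in mild CDAHFD mice (0.028) and Slco1a4 between the CDAHFD stages (0.027), all under the threshold there.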

How the data were processed

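Nuclear RNA (50 to 100 ng) was sequenced as paired 50 base reads after a stranded kit without poly(A) selection, per the labels' protocols. The authors deposited 1 table of raw counts per RefSeq identifier for 44 libraries, and a table of their own log2 fold changes with adjusted p-values for hepatocyte nuclei; the deposited log2 values and p-values are printed only where the authors' deposited table is named. The submitters' processing notes name STAR 2.4.2a, DESeq2 1.24.0 and mm10. The counting tool and its strand setting are not given in the sources used here. In the authors' table, 94.7% of genes were counted over the whole gene, introns included. Symbols came from the authors' table (13147 identifiers) or a RefSeq gene table (6879), and 79 had none.

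Counts were tested with edgeR 4.0.16 in R 4.3.3 (limma 3.58.1): TMM scaling, filterByExpr, robust quasi-likelihood fits and the Benjamini-Hochberg adjustment over all genes, with a threshold of 0.05. The 3 groups of a fraction and study were fitted together; fractions were compared over the 6 groups of a study, and diets over the 6 hepatocyte groups. Each standard error was taken as the size of the log2 change over the root of its F statistic. Printed levels use TMM factors over all 44 libraries and can differ from a fitted log2 change by up to 0.12. The fits were tested on simulated data. Alternatives were RLE scaling, DESeq2 1.42.0, no filter, a minimum count of 50, the compared groups alone, each mouse left out, the mouse as a replicate block, and, chosen after seeing the data, library totals alone and the block without CDAHFD mice Control_9862 and Control_9867.

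The labels give both libraries of a mouse the same animal number. Over 10068 genes with at least 20 counts in every library, the deviations of both libraries correlated above 0.1, and best with each other, in 20 of 22 mice; hepatocyte library Control_9862 matched whole liver library Control_9867 (r = 0.88) and Control_9867 matched Control_9862 (r = 0.78). Replicates within a group differed beyond counting noise (chi-square per degree of freedom from 20.0 to 271.7 over 60 pairs), so each counts as 1 sample. The 10 transporters, 4 lists of other bile acid genes and 6 marker lists were chosen with earlier results of these data known. All 10 transporters are named. Of the lists, Slc51a, Slco1a1, Nr1h4, Nr0b2 and Nfe2l2 are named always, and in each list the 3 genes called with the largest log2 change in advanced FPC hepatocyte nuclei. Epcam, Krt19 and Trem2 were named after their values were seen. Not every gene found by likeness of level is reported here.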

Additional observations from a re-analysis of the deposited data

Results flagged for a closer look

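In groups of 4 mice, 1 mouse stood far from the other 3 in 4 of the 80 sets of values looked at, and chance alone gives about 4. These were the highest Abcb4 in whole liver nuclei of CDAHFD controls (mouse Control_9862, 749.6 TMM CPM), the lowest Atp8b1 in whole liver nuclei of mild FPC mice (mouse Mild_6886, 152), the highest Abcc4 in whole liver nuclei of mild FPC mice (mouse Mild_6825, 59.6) and the highest Slc51b in hepatocyte nuclei of mild FPC mice (mouse Mild_6886, 1.37).

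The change of Abcc4 in advanced disease differed between hepatocyte and whole liver nuclei by edgeR's interaction test, with log2 differences of 2.13 in the FPC study and 2.84 in the CDAHFD study. Between the studies, the change in advanced hepatocyte nuclei differed by -0.88 for Atp8b1 and by 2.10 for Abcc3 (CDAHFD minus FPC, log2). In mild hepatocyte nuclei it differed by 2.14 for Slco1a4, by 2.15 for Abcc3 and by 2.19 for Abcc4. Control levels of Abcc3, Slco1a4 and Abcc4 stood higher in the FPC study, those of Abcc4 with overlapping ranges, and their part in these differences was not tested.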

How the results depend on the processing

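Counts below are of the 10 genes called, with the value of the reported fit in brackets. Advanced against mild FPC hepatocyte nuclei gave 1 (3) with the compared groups alone, and the CDAHFD pair gave 1 (2) with RLE scaling, without a filter and with the stricter filter, which leaves Slc51b untested, and 4 (2) with DESeq2. The diet difference gave 4 (2) at the advanced and 5 (3) at the mild stage with DESeq2. Hepatocyte against whole liver nuclei in CDAHFD controls gave 1 (2) with RLE scaling, DESeq2, library totals alone and without mice Control_9862 and Control_9867, and in advanced CDAHFD mice 3 (5) with RLE scaling, the stricter filter and library totals alone. With the replicate block, counts were 7 (1) in FPC controls, 8 (2) in advanced FPC mice, 5 (2) in CDAHFD controls, also without mice Control_9862 and Control_9867, and 2 (1) for the interaction in each study, or 3 without those mice in the CDAHFD study. Its effect on single calls is given beside them.

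With each mouse left out in turn, the counts ran from 1 to 4 for advanced against mild FPC and from 0 to 1 for CDAHFD hepatocyte nuclei. Between fractions they ran from 1 to 2 in FPC controls, 0 to 3 in advanced FPC mice, 1 to 2 in CDAHFD controls and 1 to 2 in advanced CDAHFD mice, and from 0 to 1 for the FPC interaction. These are edgeR counts, and DESeq2 was not run on fewer mice. The mice whose removal ended a call are named beside it.

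Library totals alone reversed Abcb4 (0.39, adjusted p = 0.019) and Atp8b1 (0.11, adjusted p = 0.43) in advanced FPC and Abcb4 (0.46, adjusted p = 0.046) in advanced CDAHFD whole liver nuclei, by their construction: the median gene shifts upward by 0.44 and 0.46. Comparisons with control in either fraction stayed within 1.5 times their count in every alternative run. Depth limits Slc51b, with 2 to 48 counts in a hepatocyte library, and Slc51a, with 1 count in all.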
